A study of Homo sapiens with 6 samples.

Results

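ATP-binding cassette (ABC) transporters of the A, B, C, D and G subfamilies were compared between cells labelled HepG2 with a knockdown of SOX9, a transcription factor of progenitor and biliary liver cells, and their controls. The family was defined as all probe sets with a single gene symbol made of ABCA, ABCB, ABCC, ABCD or ABCG and a number, together with TAP1 and TAP2. This gave 119 of 49293 probe sets, for 43 of 18574 genes. Most ABC transporters use ATP to move lipids, sterols, bile salts, drugs, peptides or cofactors across a membrane. In hepatocytes some of them line the bile canaliculus and form bile, others lie in the basolateral membrane and return conjugates to blood, and further members work inside mitochondria, peroxisomes, lysosomes and the endoplasmic reticulum. ABCG2 and ABCB1 are also known as drug efflux pumps of tumour cells, and ABCG2 activity is a classic mark of stem-like cells.

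HepG2 is an established human liver cancer cell line. The control cells were infected with an empty virus and the knockdown cells with one encoding a hairpin against SOX9 (shSox9). Each group is described as a clone of these cells, grown in DMEM with serum, and 3 arrays were made per group. A difference between the clones and an effect of the knockdown cannot be told apart, and the labels do not say whether replicate arrays are separate cultures: p-values here reflect the spread among arrays, which may be technical. The free-text description of the knockdown samples speaks of empty virus, against their titles, so SOX9 was looked at first. SOX9 read 8.15, 7.99 and 7.67 on the control arrays and 6.91, 7.08 and 6.90 on the knockdown arrays, lower on each of the latter (log2 difference -0.97, SE 0.13, limma adjusted p = 0.00114).

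The label was set against markers of cell types. Of 13 hepatocyte markers, 12 had a mean log2 signal under 5, a level at which the RMA summary compresses differences, and their list mean was 3.57 to 3.81 on the control and 3.62 to 3.81 on the knockdown arrays. ALB read 3.14 ± 0.44 and AFP 2.70 ± 0.14 in control (SD, n = 3), so these defining markers go against the label. The list means of cholangiocyte markers were 6.13 to 6.26 in control and 6.35 to 6.43 in knockdown, those of kidney epithelium 4.82 to 4.86 and 5.00 to 5.09, of endothelium 4.44 to 4.88 and 4.45 to 4.72, of leukocytes 3.68 to 4.05 and 3.82 to 4.09, and of fibroblasts 4.40 to 4.50 and 4.52 to 4.64. These list means hide spread: of the 6 cholangiocyte markers, 4 had a mean of at least 5 and 2 read lower. CFTR was among the latter, at 2.99 ± 0.19 in control (SD, n = 3). Of the 40 marker entries, SLC4A2, LHX1 and DCN rose and none fell. The part of these markers in the results was not tested. In bulk RNA, fewer cells of a type and less RNA per cell cannot be told apart. Poly-A control RNAs spiked in for labelling read 6.22, 6.29 and 6.77 on control arrays 1, 2 and 3 and 6.93, 6.64 and 6.72 on the knockdown arrays, so control 3 lay among the latter. The 3' minus 5' log2 signal, a sign of RNA quality and labelling, was 2.56, 2.55 and 2.51 for actin in control and 2.29, 2.34 and 2.19 in knockdown, without overlap. For GAPDH it was 0.04, 0.03 and 0.26 in control and 0.42, 0.37 and 0.24 in knockdown. The part of the 3' to 5' signals in the differences below was not tested.

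With each gene represented by its probe set of highest mean, 5 of the 43 transporter genes rose and 2 fell (limma adjusted p under 0.05 over all genes). That is 16.3% of the members, beside 16.8% of all genes called either way, with 8.41% higher and 8.35% lower. The family as a whole was therefore called about as often as any gene. Its median log2 difference was 0.09, beside 0.026 for all genes. Over probe sets, 8 of 119 rose and 8 fell, or 13.4% beside 12.6% of all probe sets (5.94% higher and 6.68% lower). Calls were more frequent at higher signal: 6 of 24 transporter genes with a mean of at least 5 were called (25.0%, beside 24.9% of all such genes) and 1 of 19 with a lower mean (5.26%, beside 2.9%).

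The genes that fell were ABCA1 and ABCG1, which export cellular cholesterol. Those that rose were the peptide transporter subunits TAP1 and TAP2, the mitochondrial carrier ABCB10, the lipid transporter ABCA3 and the drug efflux pump ABCC10. By subfamily, 1 of 12 ABCA genes rose and 1 fell, 1 of 8 ABCB genes and both TAP genes rose, 1 of 12 ABCC genes rose, 0 of 4 ABCD genes passed (1 had an unadjusted limma p under 0.05) and 1 of 5 ABCG genes fell.

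**Figure D1:**
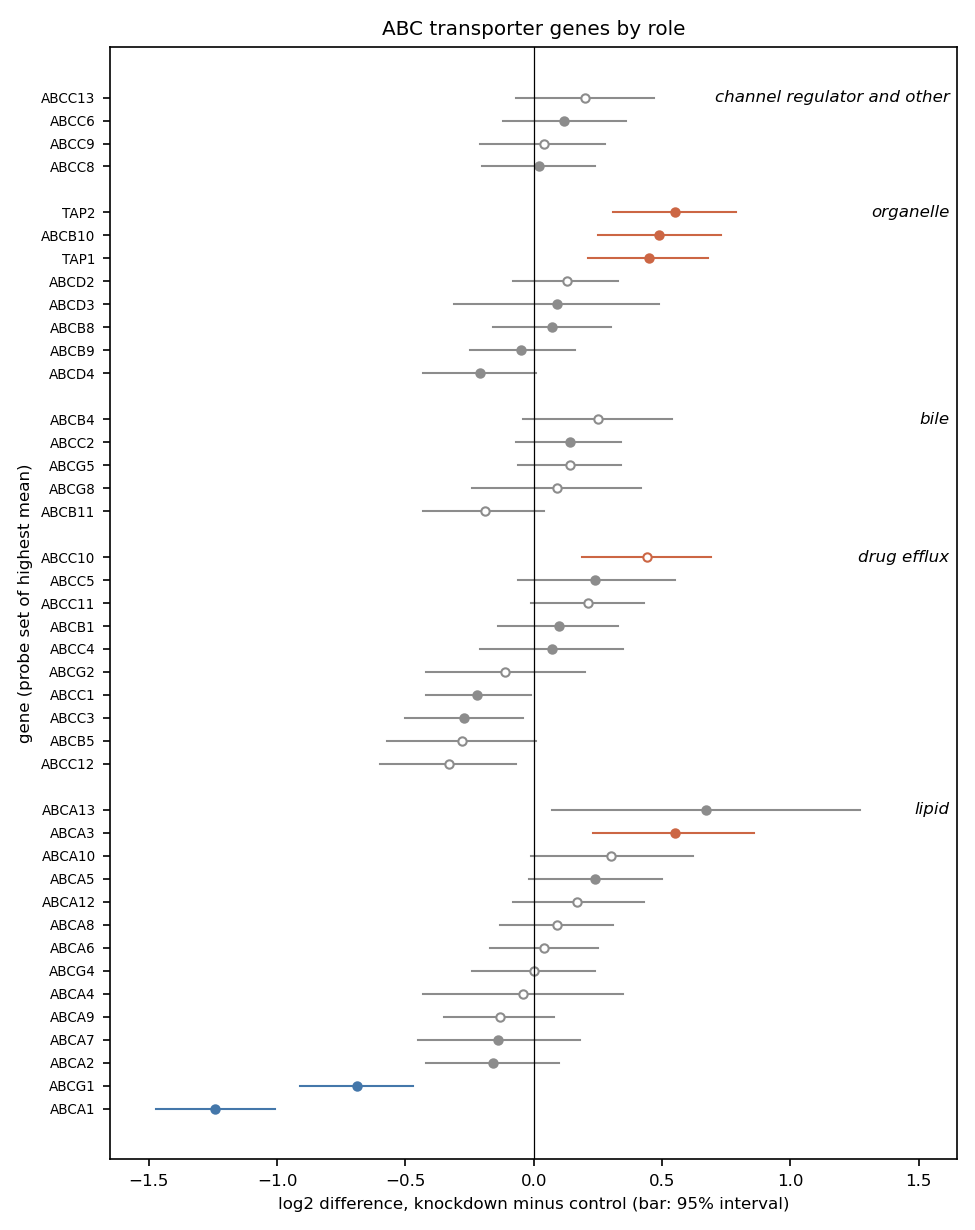
Log2 difference between knockdown and control for 41 of the 43 ABC transporter genes grouped by role, with bars for the 95% confidence interval of the limma fit. Orange marks genes higher and blue genes lower at an adjusted p under 0.05, grey marks the rest, and open points have a mean log2 signal under 5; ABCA1 at -1.24 and ABCG1 at -0.69 stand to the left of the other members.

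Lipid transporters held both falls among the genes. Of 14 genes, 2 fell, 1 rose and 11 did not pass (21.4% called, beside 16.8% of all genes), with a median of 0.02. ABCA1 loads cholesterol and phospholipid onto apolipoprotein A-I and so starts the formation of high-density lipoprotein. Its probe set of highest mean, 11739503_at, read 6.49, 6.62 and 6.35 on the control arrays and 5.23, 5.18 and 5.34 on the knockdown arrays. The groups were far apart. ABCA1 fell 2.35-fold, from 6.49 ± 0.13 to 5.25 ± 0.08 (SD, n = 3; log2 difference -1.24, SE 0.10, limma adjusted p = 0.000125), which left 42.5% of the control signal.

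The remaining ABCA1 probe sets had low signals. Probe set 11739502_a_at read 4.09, 4.20 and 3.99 in control arrays and 3.62, 3.92 and 3.59 in knockdown arrays, lower without overlap, yet the log2 difference of -0.38 did not pass (limma adjusted p = 0.0679 over all probe sets). By contrast, 11760079_at read between 2.72 and 2.90 on all 6 arrays and differed by 0.07. The table aligns the target of the first of these and of 11739503_at to the same stretch, chromosome 9, minus strand, positions 107543282 to 107690527, with a build not given in the sources used here.

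ABCG1 passes cholesterol on to lipoprotein particles that already hold lipid. It read 7.90, 7.76 and 7.97 on control arrays, compared with 7.25, 7.22 and 7.11 on knockdown arrays, by probe set 11725515_a_at. All knockdown arrays lay below all control arrays. The gene fell from 7.88 ± 0.11 to 7.19 ± 0.07 (SD, n = 3; log2 difference -0.69, SE 0.10, limma adjusted p = 0.00162), to 62.1% of the control signal. Its other probe sets differed by -0.72, -0.80, -0.50 and -0.58, so that 5 of 5 fell at an adjusted p under 0.05 over all probe sets. The last 2 of these lost their call without control 1, knockdown 1 or knockdown 2, and the last also without knockdown 3 (adjusted p 0.0506 to 0.0901). Both also lost it with the spike-in covariate (0.107 and 0.257), and the former with the replicate block (0.0566). The table aligns ABCG1 to chromosome 21, band q22.3, plus strand, from position 43619798 to 43717938.

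ABCA1 and ABCG1 are textbook targets of the liver X receptors, sterol-activated nuclear receptors that bind DNA together with RXR at paired, repeated motifs. The promoter window of ABCA1 is shown because it holds such a pair close to the transcription start (RefSeq, GRCh38.p14, chr9:104928106-104928405, minus strand; 250 bases before to 50 bases after the start). Capitals mark every match to GGTCA, the core of nuclear receptor motifs, to its variant AGGTTA or to AACAAT, a core bound by SOX factors, on either strand.
ABCA1: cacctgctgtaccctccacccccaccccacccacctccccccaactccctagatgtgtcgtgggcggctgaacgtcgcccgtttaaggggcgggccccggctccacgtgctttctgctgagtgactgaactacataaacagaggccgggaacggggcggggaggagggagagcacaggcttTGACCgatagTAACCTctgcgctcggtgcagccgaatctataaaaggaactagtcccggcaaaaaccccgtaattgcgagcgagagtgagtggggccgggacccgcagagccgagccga

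Both capital runs read on the opposite strand, as GGTCA and AGGTTA, with 4 bases between the full motifs, and they begin 69 and 59 bases before the start. The variant was added to the search after this window was read. GGTCA or its complement occurred in 37.7% of 27305 promoter windows and in 10 of the 32 transporter windows in the table, and AGGTTA in 7.02% of all windows and, among the transporters, in ABCA1 alone. AACAAT occurred in 10.3% of all windows and in 1 of the 32, that of ABCC11. These matches describe letters in a window and not binding. ABCG1 had no entry among these windows.

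ABCA3 moves phospholipid into the lamellar bodies of lung cells. It read 7.39, 7.29 and 7.80 in control, against 8.16, 8.08 and 7.88 in knockdown. The groups did not overlap, but control 3 and knockdown 3 were close. The log2 difference was 0.55 (SE 0.14, limma adjusted p = 0.0246). Its other probe sets differed by 0.13 and 0.16 and did not pass. The call was lost without control 1, control 2, knockdown 1 or knockdown 2 (adjusted p = 0.0903, 0.0757, 0.105 and 0.0708), and with the spike-in level as a covariate the difference was 0.29 (adjusted p = 0.326). ABCA3 is aligned to chromosome 16, band p13.3, minus strand, positions 2325877 to 2390747.

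The other lipid transporters did not pass and lay between -0.16 for ABCA2, a transporter of endosomes and lysosomes, and 0.67 for ABCA13. ABCA13 varied widely, at 5.51, 6.18 and 5.10 in control arrays and 6.16, 5.89 and 6.75 in knockdown arrays (adjusted p = 0.13). ABCA7, which exports phospholipid, differed by -0.14 (95% interval -0.45 to 0.18), ABCA5 by 0.24 (-0.02 to 0.50) and ABCG4, a sterol exporter of the brain related to ABCG1, by 0.00 (-0.24 to 0.24). ABCA4, ABCA6, ABCA8, ABCA9, ABCA10, ABCA12 and ABCG4 all had a mean under 5, so changes in them could be missed. The value of ABCA10, 0.30, comes from 11754673_s_at, which the table aligns to chromosome 4, band p16.3, while its other 3 probe sets are aligned to chromosome 17, band q24.3, and differed by 0.00 to 0.17.

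Of 17 sterol efflux partners of ABCA1 and ABCG1, 1 rose and 2 fell (17.6%, beside 16.8% of all genes; median -0.12). A mean of at least 5 was reached by 15 of the 17, and 24.9% of all such genes were called. The cholesteryl ester hydrolase NCEH1 changed by 0.47 (limma adjusted p = 0.0419 over all genes). Its 3 probe sets ranged from -0.31 to 0.47, and none passed over all probe sets. The oxysterol-binding protein OSBP changed by -0.41 (adjusted p = 0.0185) and NPC1, which carries cholesterol out of lysosomes, by -0.38 (adjusted p = 0.0182). Scavenger receptor SCARB1 differed by 0.01. The liver X receptor genes themselves did not pass. NR1H3, the alpha form, read 6.66, 6.84 and 7.13 on control arrays, compared with 6.62, 6.55 and 6.35 on knockdown arrays (log2 difference -0.37, adjusted p = 0.0861), and NR1H2, the beta form, differed by 0.20 (adjusted p = 0.272). MYLIP and SREBF1, also known targets of these receptors and picked here for that reason, differed by -0.15 (adjusted p = 0.464) and 0.17 (adjusted p = 0.444).

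**Figure D2:**
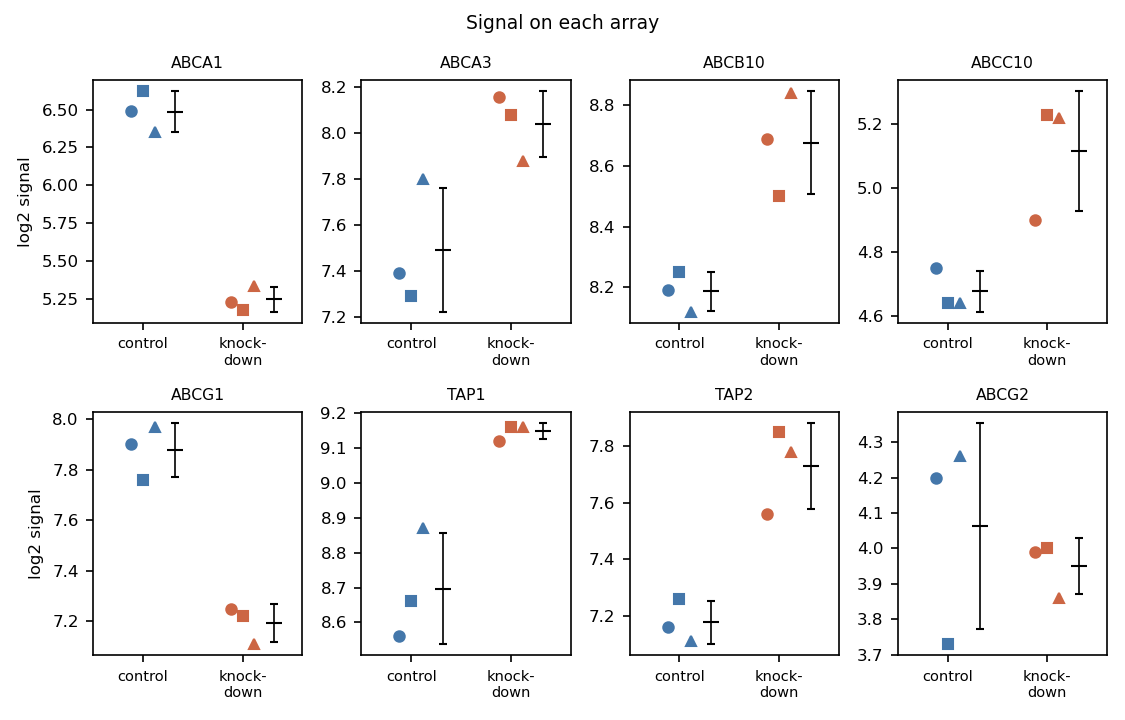
Log2 signal on each array for the 7 transporter genes called in either direction and for ABCG2, with circles, squares and triangles for replicates 1, 2 and 3 and a bar for the mean ± SD of 3 arrays; each panel has its own axis, which does not start at 0. ABCA1 and ABCG1 are lower and TAP1, TAP2, ABCB10, ABCA3 and ABCC10 higher on all 3 knockdown arrays, while for ABCG2 the knockdown arrays lie within the range of the controls.

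Drug efflux pumps included 1 call, a rise. Of 10 genes, 1 rose, 0 fell and 9 did not pass (10.0%, beside 16.8% of all genes), with a median of -0.02. ABCC10, a pump of the multidrug resistance protein group, read 4.75, 4.64 and 4.64 in control, against 4.90, 5.23 and 5.22 in knockdown. All knockdown arrays were higher, at a signal near 5. The log2 difference was 0.44 (SE 0.11, limma adjusted p = 0.0235), and the call was lost without any 1 of control 2, control 3, knockdown 2 and knockdown 3 (adjusted p 0.0538 to 0.0916). Its only probe set is aligned to chromosome 6, band p21.1, plus strand, positions 43399488 to 43418160.

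ABCG2, the breast cancer resistance protein, was measured by 2 probe sets. Probe set 11724537_a_at read 4.20, 3.73 and 4.26 on the control arrays and 3.99, 4.0 and 3.86 on the knockdown arrays. On 11724538_a_at the control arrays read 3.61, 2.96 and 3.21 and the knockdown arrays 3.28, 3.37 and 3.24. The groups overlapped on both, and both signals were under 5. The log2 differences were -0.11 (95% interval -0.44 to 0.21, limma adjusted p = 0.716 over all probe sets) and 0.04 (-0.31 to 0.39, adjusted p = 0.921). Both intervals include 0, so no direction was resolved for ABCG2. Both probe sets are aligned to chromosome 4, band q22.1, minus strand, positions 89011416 to 89080214.

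ABCB1, the P-glycoprotein, differed by 0.10 (95% interval -0.14 to 0.33), with 5.79 ± 0.15 in control and 5.89 ± 0.05 in knockdown (SD, n = 3). ABCC1, an exporter of glutathione conjugates, read 8.58 ± 0.06 and 8.37 ± 0.05, lower on each knockdown array but not past the threshold (log2 difference -0.22, adjusted p = 0.144). ABCC3, which returns glucuronides from hepatocytes to blood, gave opposite signs on its probe sets, -0.27 and 0.42, and neither passed. ABCC4, an exporter of cyclic nucleotides, differed by 0.07, ABCC11 by 0.21, ABCB5 by -0.28 and ABCC12 by -0.33 (adjusted p = 0.0913), the last 3 at a mean under 5.

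ABCC5, which also exports cyclic nucleotides, was not uniform. Its probe set of highest mean differed by 0.24 (adjusted p = 0.289 over all genes). Probe set 11730509_s_at read 6.61, 6.66 and 6.64 in control arrays and 6.06, 6.26 and 5.86 in knockdown arrays and fell by 0.58 (adjusted p = 0.0138 over all probe sets). Without control 1 or knockdown 1 this adjusted p was 0.0501 or 0.0585. The call was lost in 3 of 16 alternatives in all, with a highest adjusted p of 0.122. The other probe sets differed by -0.05 and -0.04. The target of 11730509_s_at is aligned to positions 183701540 to 183735727 of chromosome 3, minus strand. Those of the others reach down to 183639001 or 183637721, so the one that fell does not include the 3' part that they share.

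Conjugating enzymes make many of the substrates of the ABCC pumps. Of 15 measured genes of conjugation and of steps near it, such as glutathione synthesis, 5 rose and 1 fell. That is 40.0% beside 16.8% of all genes, with a median of 0.16. A mean of at least 5 was reached by 10 of the 15, and 24.9% of all such genes were called. GCLC, which starts glutathione synthesis, rose by 0.98, the microsomal glutathione transferase MGST2 by 0.58 and the glutathione transferase GSTM3 by 0.50, while GSTA4 changed by -0.53.

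Bile transporters did not pass in either direction. All 5 genes lay between -0.19 and 0.25, with a median of 0.14, and 0 had an unadjusted limma p under 0.05. ABCC2, which secretes conjugated bilirubin, was the only one with a mean of at least 5. It read 9.47, 9.36 and 9.47 on control arrays, compared with 9.53, 9.64 and 9.53 on knockdown arrays. The knockdown arrays were slightly higher without overlap, by 0.14 (95% interval -0.07 to 0.34, limma adjusted p = 0.395). The bile salt export pump ABCB11 read 2.95 ± 0.14 and 2.76 ± 0.09 (SD, n = 3), and the phosphatidylcholine floppase ABCB4 3.39 ± 0.18 and 3.64 ± 0.19. ABCG5 and ABCG8, which form the sterol exporter of bile and gut together, differed by 0.14 and 0.09 at means of 2.94 and 3.85. Changes in these 4 could be missed at such signals.

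Uptake carriers and bile acid genes around them included 1 of 18 that rose and 2 that fell, which at 16.7% is about the share of all genes called (16.8%). The organic anion carrier SLCO2B1 changed by -1.06 (SE 0.10, adjusted p = 0.000204), from 7.63 to 6.57. Its 7 probe sets ranged from -1.2 to -0.0, and 4 of them fell over all probe sets. SLC51B, a subunit of the basolateral bile acid exporter, changed by -0.41, and the lipid flippase ATP8B1 by 0.53 at signals under 5.

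Organelle transporters held 3 of the 5 rises among genes. Of 10 genes, 3 rose, 0 fell and 7 did not pass (30.0%, beside 16.8% of all genes; median 0.11). A mean of at least 5 was reached by 9 of the 10, and 24.9% of all such genes were called. TAP1 and TAP2 form the transporter of the endoplasmic reticulum that supplies peptides to HLA class I molecules. TAP1 read 8.56, 8.66 and 8.87 in control, against 9.12, 9.16 and 9.16 in knockdown. All knockdown arrays were higher, and control 3 was the nearest control. The log2 difference was 0.45 (SE 0.10, limma adjusted p = 0.0159), and its second probe set also differed by 0.45 (adjusted p = 0.0144 over all probe sets). In that fit the second probe set lost its call in 4 of 17 alternatives (highest adjusted p 0.137) and the first in 7 of 17 (highest 0.256). The call of the gene was lost without control 1, knockdown 1 or knockdown 2 (adjusted p = 0.0685, 0.0569 and 0.053) and with the spike-in covariate (0.32, adjusted p = 0.2).

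TAP2 read 7.16, 7.26 and 7.11 in control arrays and 7.56, 7.85 and 7.78 in knockdown arrays. The groups did not overlap. Control 3 was the lowest control here and the highest on the other 3 TAP2 probe sets. TAP2 rose from 7.18 ± 0.08 to 7.73 ± 0.15 (SD, n = 3; log2 difference 0.55, SE 0.11, limma adjusted p = 0.00666). Of its 4 probe sets 2 passed over all probe sets, at 0.55 and 0.52, and the others differed by 0.47 (adjusted p = 0.0502) and 0.27. Those 2 calls were lost over all probe sets without control 1 or knockdown 2 for the former (adjusted p = 0.055 and 0.0523) and, for the latter, without knockdown 1 (0.0532), with the replicate block (0.0529) and with the spike-in covariate (0.108). The call of the gene held in all 19 alternatives run.

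The TAP genes lie near each other in the major histocompatibility region on chromosome 6, and their promoter windows are shown because both genes rose (RefSeq, GRCh38.p14; chr6:32853655-32853954 for TAP1 and chr6:32838690-32838989 for TAP2, both minus strand, cut as for ABCA1). Capitals mark CCGCCC, the complement of the GC box GGGCGG.
TAP1: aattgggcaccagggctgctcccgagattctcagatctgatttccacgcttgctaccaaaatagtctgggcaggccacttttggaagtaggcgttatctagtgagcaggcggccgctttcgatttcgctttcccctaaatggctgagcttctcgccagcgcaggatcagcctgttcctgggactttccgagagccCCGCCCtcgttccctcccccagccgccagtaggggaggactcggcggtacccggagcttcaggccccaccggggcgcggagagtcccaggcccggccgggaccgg
TAP2: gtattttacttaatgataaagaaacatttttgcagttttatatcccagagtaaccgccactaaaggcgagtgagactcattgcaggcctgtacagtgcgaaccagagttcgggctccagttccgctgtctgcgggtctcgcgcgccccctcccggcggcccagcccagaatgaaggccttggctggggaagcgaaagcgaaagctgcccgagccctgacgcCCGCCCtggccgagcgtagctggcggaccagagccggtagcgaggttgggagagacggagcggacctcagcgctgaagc

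Each window held 1 such match, 55 bases before the start of TAP1 and 29 before that of TAP2. GGGCGG or its complement occurred in 44.6% of all windows and in 16 of the 32 transporter windows, so the match sets neither gene apart. AACAAT did not occur in either window.

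Of 16 other genes of peptide loading, 1 rose and 2 fell (18.8%, beside 16.8% of all genes and 24.9% of those with a mean of at least 5, which all 16 had; median -0.04). The immunoproteasome subunit PSMB10 rose by 0.65 (adjusted p = 0.00264), while PSMB8 and PSMB9, whose genes lie beside the TAP genes, differed by -0.11 and 0.03. Of the class I genes, HLA-C changed by -0.38 (adjusted p = 0.0213) and HLA-E by -0.34 (adjusted p = 0.0246), while HLA-B differed by -0.14 (adjusted p = 0.371). Over all probe sets, 1 of 3 HLA-C probe sets fell (range -0.38 to -0.04) and 5 of 6 of HLA-E (range -0.52 to -0.32). Probes for related HLA transcripts can share signal. TAPBP, the tapasin that bridges TAP and class I molecules, differed by 0.03, the transactivator NLRC5 by 0.07 and B2M by 0.09. The 5 TAPBP probe sets ranged from -0.2 to 0.38, and 1 rose over all probe sets.

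**Figure D3:**
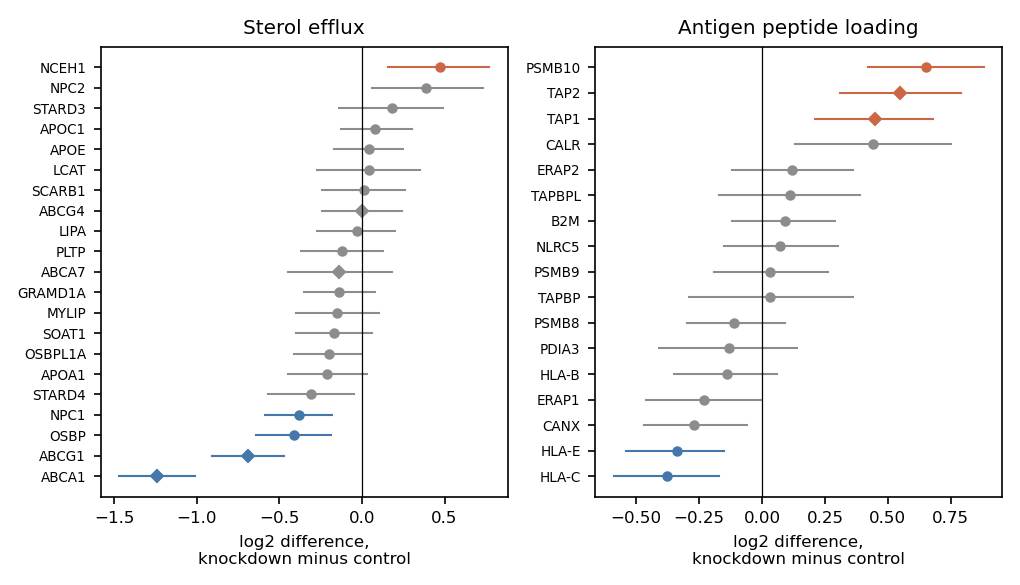
Log2 difference between knockdown and control, with the 95% interval of the limma fit, for sterol efflux genes at left and peptide loading genes at right; diamonds are ABC transporters, circles the other genes, and orange and blue mark genes higher and lower at an adjusted p under 0.05. ABCA1 and ABCG1 are the lowest at left, and TAP1 and TAP2 stand above the plotted HLA genes at right.

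ABCB10 of the mitochondrial inner membrane is needed for heme synthesis in red cell precursors. It read 8.19, 8.25 and 8.12 on control arrays, compared with 8.69, 8.50 and 8.84 on knockdown arrays. The lowest knockdown array was above the highest control. The log2 difference was 0.49 (SE 0.11, limma adjusted p = 0.0123). Without knockdown 1 the adjusted p was 0.0537, and with the spike-in covariate the difference was 0.51 (adjusted p = 0.0999). Its only probe set, 11724634_s_at, drops out of the alternative without probe sets named _s_at or _x_at. Over all probe sets, this probe set lost its call in 5 of 16 alternatives (highest adjusted p 0.136). The table aligns ABCB10 to chromosome 1, band q42.13, minus strand, positions 229652328 to 229694640. ABCB8, also of the mitochondrial inner membrane, differed by 0.07 (95% interval -0.16 to 0.30). Of 21 genes of heme and iron-sulfur assembly, 3 rose and 0 fell (14.3%). That is below the 16.8% of all genes called and the 24.9% of genes with a mean of at least 5, which all 21 had. The rises were those of the heme exporter FLVCR1 by 0.71, the heme enzyme CPOX by 0.46 and the assembly protein LYRM4 by 0.38. Those of CPOX and LYRM4 were near the threshold (limma adjusted p = 0.049 and 0.0454 over all genes). None of their probe sets passed over all probe sets. The 3 of CPOX ranged from -0.19 to 0.46 and the 4 of LYRM4 from -0.38 to 0.38. ALAS1, the first enzyme of heme synthesis, differed by -0.28 (adjusted p = 0.0694).

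Peroxisomal transporters of the ABCD subfamily carry fatty acyl groups into the organelle. ABCD2 read under 3 in both groups. ABCD3, which handles branched chains and bile acid precursors, differed by 0.09 on its probe set of highest mean (95% interval -0.31 to 0.49).

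The 5 probe sets of ABCD3 disagreed. On 11741591_at the control arrays read 4.54, 4.95 and 5.06 and the knockdown arrays 6.08, 6.09 and 6.18. It rose by 1.27 (SE 0.14, limma adjusted p = 0.00113 over all probe sets), the largest rise of any member probe set. Its call held in all 17 alternatives run. By contrast, 11749150_a_at read 8.34, 8.37 and 7.68 in control arrays and 7.31, 7.61 and 7.85 in knockdown arrays, a difference of -0.54 with overlap (adjusted p = 0.122). The table aligns 11741591_at and 11741592_x_at to chromosome 1, plus strand, positions 94883932 to 94944263, and the others to positions that end between 94982836 and 94984218. The probe set 11741592_x_at of the short target differed by 0.18 (adjusted p = 0.581), so the rise was seen on 1 of the 2 probe sets with these coordinates. Of 20 genes of peroxisome assembly and beta oxidation, 0 rose and 2 fell (10.0%, beside 16.8% of all genes and 24.9% of those with a mean of at least 5, which all 20 had), among them PEX7, the receptor for one class of imported enzymes, at -0.59.

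**Figure D4:**
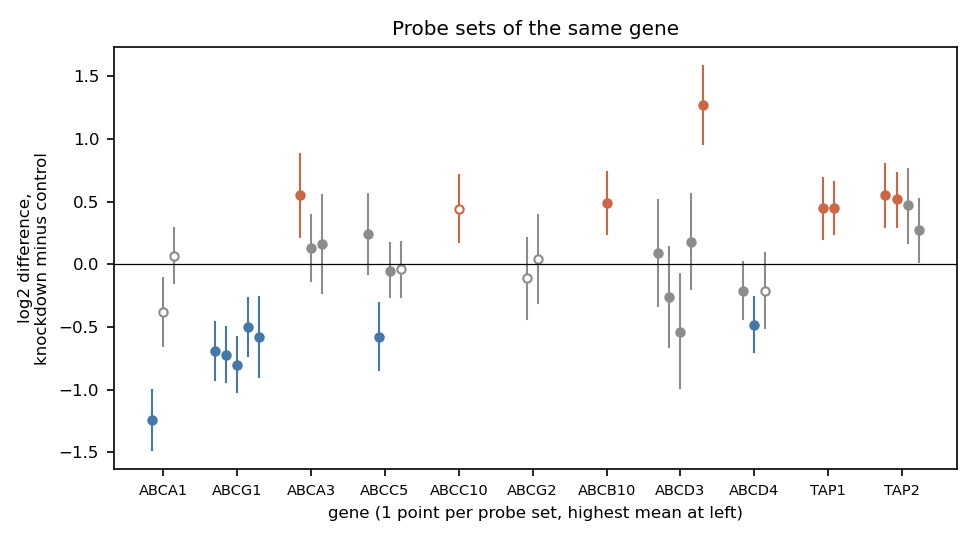
Log2 difference between knockdown and control for each probe set of 11 transporter genes, with the 95% interval of the limma fit, ordered within a gene from the highest mean signal at left. Colours follow calls over all probe sets and open points have a mean under 5; the 5 probe sets of ABCG1 lie together between -0.80 and -0.50, while those of ABCD3 range from -0.54 to 1.27.

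ABCD4 exports cobalamin from lysosomes with its partner LMBRD1. Probe set 11752625_a_at of ABCD4 read 5.44, 5.53 and 5.49 on control arrays, compared with 4.95, 5.12 and 4.95 on knockdown arrays, lower on every knockdown array. It fell by 0.48 (SE 0.10, limma adjusted p = 0.0141 over all probe sets). That call was lost in 4 of 17 alternatives (highest adjusted p 0.117), among them without knockdown 1 (0.0712) and without knockdown 3 (0.053). The probe set of highest mean differed by -0.21 (adjusted p = 0.206 over all genes). LMBRD1 itself changed by -0.43 (adjusted p = 0.0164). Of 10 genes of cobalamin handling, 2 rose and 2 fell (40.0%, beside 16.8% of all genes). A mean of at least 5 was reached by 9 of the 10, and 24.9% of all such genes were called. The receptor CD320 changed by 0.52, the mitochondrial protein MMAA by 0.44 and the methionine synthase MTR by -0.57. ABCB9, a lysosomal peptide transporter with 8 probe sets, ranged from -0.05 to 0.20 and none passed.

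The remaining members, the potassium channel subunits ABCC8 and ABCC9, ABCC6 and the pseudogene ABCC13, differed by 0.02, 0.04, 0.12 and 0.20, and 0 of their 12 probe sets passed or had an unadjusted limma p under 0.05. ABCC8 and ABCC6 had means of 5.41 and 5.28 and the others read lower.

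Of 23 nuclear receptors and other regulators known to act on ABC genes, 3 rose and 3 fell (26.1%, beside 16.8% of all genes; median 0.12). Of the 23, 20 had a mean of at least 5, where 24.9% of all genes were called. The vitamin D receptor VDR rose by 1.09 (adjusted p = 0.00083) and PPARG by 0.62 (adjusted p = 0.0132). Over all probe sets, 2 of 4 VDR probe sets rose, with a range of 0.02 to 1.15, and 2 of 2 of PPARG. VDR read 6.85, 6.91 and 7.38 in control, against 8.14, 8.08 and 8.18 in knockdown, so control 3 was the nearest control. MYC and PPARA changed by -0.67 and -0.50. The 9 PPARA probe sets ranged from -0.51 to 0.21, and 2 fell over all probe sets. The bile acid receptor NR1H4 rose by 0.33 and FOXO1 changed by -0.48. NR1H4 read under 4 in both groups and was near the threshold (limma adjusted p = 0.0468 over all genes). Its only probe set did not pass over all probe sets. The 4 FOXO1 probe sets ranged from -0.81 to 0.12, and 2 fell over all probe sets. The drug sensors NR1I2 and NR1I3 differed by 0.24 and -0.04 at signals under 5.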

How the data were processed

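Total RNA of 3 control and 3 knockdown samples of cells labelled HepG2 was labelled with a 3' in vitro transcription kit and hybridised to Affymetrix arrays. The authors deposited log2 expression values of 49372 probe sets, made with RMA and affy per the submitters' processing notes; their versions, and the array's design, were not given in the sources used here. Background correction and alignment of array distributions are part of RMA, which compresses low signals. The deposited series matrix held the same values (0 differed).

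After removal of 79 control probe sets, groups assigned from sample titles were fitted in R 4.3.3 using limma 3.58.1 (lmFit and eBayes, two-sided, without covariate or filter), over 49293 probe sets and over 18574 genes, each with its probe set of highest mean. P-values were adjusted by Benjamini-Hochberg across each full set, and 0.05 was the threshold. Differences are knockdown minus control. The fit was tested on simulated data. Gene symbols were updated through Entrez numbers; promoter windows came from RefSeq, where 32 of 43 members matched. Plots used Python 3.11.15, pandas 2.3.3 and matplotlib 3.10.9.

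Members, roles and lists were chosen with earlier results of these data known, and ABCC13 was put in a role after the table was read. Named by rule were called members, all ABCG2 probe sets, in roles with fewer than 2 called members the 2 of smallest p, the member of highest signal per role, and up to 4 passing genes per list with the largest change. Other genes were named for their role after values were seen. A few genes counted in roles and lists are not reported here by name. Lists are described by counts, with no set test. Alternatives were signal filters, further normalization, variance models, weighting of arrays, a replicate block, other probe set rules, leaving out each array and, added after seeing the data, a spike-in covariate. The number of arrays limits precision.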

Additional observations from a re-analysis of the deposited data

How the results depend on the processing

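The calls of ABCA1, ABCG1 and TAP2 as genes held in all 19 alternatives run, with log2 differences of -1.30 to -0.52, -0.80 to -0.64 and 0.45 to 0.67 and a highest adjusted p of 0.00563, 0.0165 and 0.0316. The other called genes lost their call in 2 alternatives for ABCB10, 4 for TAP1, 6 for ABCA3 and 7 for ABCC10. The count of member probe sets called, 16, was 8 with the replicate block and 6 with the spike-in covariate, and lay between 7 and 19 when single arrays were left out: 7 without control 1, 7 without knockdown 1 and 10 without knockdown 3. The count of member genes called, 7, was 3 with the spike-in covariate and between 4 and 7 when single arrays were left out, with 4 without knockdown 1 and 4 without knockdown 2. With the block or covariate fewer degrees of freedom remain, and calls over all probe sets fell as well, from 6220 to 3343 and 1139. Without control 3 they rose to 8757 and without any other array they fell.

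Same-numbered control and knockdown arrays did not deviate together from their group means (correlations -0.24, -0.40 and -0.42). Some arrays of different numbers did, control 2 with knockdown 3 at 0.53, control 1 with knockdown 2 at 0.35 and control 3 with knockdown 1 at 0.34, so the replicate block only shares a number. Among genes, that block ended the call of ABCC10 (adjusted p = 0.0614) and left 6 of the 7.

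SOX9 differed by -0.81 on its most variable probe set (adjusted p = 0.0526) and also -0.81 without probe sets named _s_at or _x_at (0.0569), and ranged from -1.10 to -0.86 when single arrays were left out. Reversed signs were seen for genes that did not pass: ABCC5 read -0.58 on its most variable probe set (adjusted p = 0.016) and -0.11 with the mean of probe sets. ABCC6 read -0.05 on its most variable set and -0.05 without _s_at or _x_at sets, ABCG2 0.04 on its own most variable set, and ABCD3 -0.26 without _s_at or _x_at sets. ABCC8 read -0.02 with array weights and -0.05 without knockdown 2 (-0.05 to 0.07 over single arrays left out). ABCD3 read -0.03 without control 1 and -0.05 without knockdown 3 (range -0.05 to 0.28), and the ABCG2 probe set 11724538_a_at -0.08 with array weights and -0.11 without control 2 (range -0.11 to 0.21). The cause was not tested. Signals under 5 limit what 19 of the 43 genes can show.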

Other observations

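ATP-binding cassette proteins without a membrane domain act in translation and ribosome recycling rather than transport. Of the 5 genes measured, 4 of this kind and CFTR, 2 rose and 0 fell (40.0% called, beside 16.8% of all genes, and 8.41% of all genes higher). Among the 5, 4 had a mean of at least 5, where 24.9% of all genes were called. ABCF1, which binds the initiation factor eIF2, read 7.78, 7.79 and 8.28 in control, against 8.80, 8.73 and 8.58 in knockdown (log2 difference 0.76, SE 0.14, limma adjusted p = 0.00599). ABCF2 rose by 0.63 (adjusted p = 0.00759), and ABCF3 and the recycling factor ABCE1 differed by 0.35 and 0.42 (adjusted p = 0.0529 and 0.0809). Control 3 was the highest control for ABCF1, ABCF2 and ABCF3, as for the spike-ins. CFTR, the chloride channel of the family, read 2.99 ± 0.19 and 3.04 ± 0.04 (SD, n = 3).

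ABCB6, a porphyrin carrier, was measured only on probe sets that also name ATG9A, which differed by 0.17 and -0.18 (adjusted p = 0.508 and 0.348 over all probe sets). Probe sets that name ABCC6 with its pseudogenes differed by 0.17 and 0.05, and one that names ABCB8 with ASIC3 by -0.06; none passed.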
